A study of Mus musculus with 4 samples.

Results

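Oligodendrocyte precursors are the dividing glial cells from which myelinating oligodendrocytes arise. In the forebrain of the mouse embryo the earliest of them come from ventral territories that include the preoptic area (POA), the same territories that produce cortical interneurons. Their identity rests on a small set of transcription factors (OLIG1, OLIG2, SOX10 and NKX2-2), and their number is controlled by platelet-derived growth factor (PDGF) acting on the receptor PDGFRA. The 8 genes described here are *Olig1*, *Olig2*, *Sox10*, *Nkx2-2*, *Pdgfra*, *Cspg4*, *Gpr17* and *Lhfpl3*. They were chosen by name as genes of this lineage, each was found by its Ensembl identifier, and they are 8 of the 55573 genes in the count lists. All 8 were among the 16832 genes that passed the filter on low counts.

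The libraries are bulk RNA-seq of cells with tdTomato fluorescence, sorted by FACS from the basal telencephalon, described in the study as POA, at E16. All mice carried *Hmx3-Cre*, which drives recombination in *Hmx3*-expressing cells and their descendants, and the tdTomato reporter. The *Dnmt1* WT group kept functional *Dnmt1*. In the *Dnmt1* KO group the *Dnmt1 loxP2* allele lost exons 4 and 5 in the Cre-expressing cells, which joins exon 3 to exon 6 out of frame and gives a null allele. Each genotype had 2 libraries from pooled cells, of 12 WT and 6 KO embryos. The labels call the libraries biological replicates and the study calls them technical duplicates, so that SDs and p-values describe the spread between libraries, which may be technical.

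The libraries held between 8075102 and 9995968 counts, so that 3 counts are worth between 0.294 and 0.372 CPM (the count per 1000000 of the TMM-scaled library size). Intervals below describe the spread between libraries or, where named, counting error only. *Dnmt1* itself had 3103 and 4557 counts in WT, against 2383 and 2552 in KO (log2 fold change -0.56, edgeR adjusted p = 0.0511), and counts per gene do not show exons 4 and 5 separately. WT replicate 1 stood apart in its share of mitochondrial rRNA (8.66% of counts, against 1.51% to 2.32% in the other libraries). *Hmx3*, the gene whose promoter drives Cre, had 84.3 ± 8.11 CPM in the WT libraries (SD, n = 2) against 82.8 ± 15.5 CPM in KO. Of the markers of neurons and GABAergic interneurons, *Map2* had 2135 ± 333 CPM in the WT libraries (SD, n = 2) against 1577 ± 88.8 CPM in KO. This neuronal marker was thus present in both genotypes, with a lower mean in KO. *Dbx1*, a marker of POA progenitors, had at most 5 counts in any library.

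The oligodendrocyte precursor genes were detected in every library, from 44 counts of *Nkx2-2* to 7522 of *Pdgfra*. Together they had 1553 and 1623 CPM in the WT libraries and 1954.5 and 2055 CPM in the KO libraries. *Olig2* rose 1.55-fold in KO, while 7.33% of all tested genes rose by the same rule. The remaining members did not pass the edgeR test, which does not show that their levels were equal. Some of them passed in other fits, described below. In 7 of the 8, all except *Lhfpl3*, both KO libraries lay above both WT libraries, as in 28.3% of all tested genes. In bulk libraries a larger share of cells of a type and more RNA per cell cannot be told apart.

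Sequences upstream of 3 of these genes are shown because the deleted enzyme methylates cytosines in CG dinucleotides: *Olig2* as the member that passed the test, *Pdgfra* as the one with the most counts and *Lhfpl3* as the one that was not higher in KO. They were taken from RefSeq (GRCm38.p6), on the plus strand, from 250 bases before the annotated start up to that start or to the first base of an annotated exon, and CG dinucleotides are in capitals. The *Olig2* stretch is chr16:91225300-91225456, the *Pdgfra* stretch chr5:75152001-75152250 and the *Lhfpl3* stretch chr5:22745804-22746053.
Olig2: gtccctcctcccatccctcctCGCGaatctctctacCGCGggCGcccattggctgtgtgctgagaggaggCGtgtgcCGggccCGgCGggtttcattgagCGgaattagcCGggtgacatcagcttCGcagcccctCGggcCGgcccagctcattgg
Pdgfra: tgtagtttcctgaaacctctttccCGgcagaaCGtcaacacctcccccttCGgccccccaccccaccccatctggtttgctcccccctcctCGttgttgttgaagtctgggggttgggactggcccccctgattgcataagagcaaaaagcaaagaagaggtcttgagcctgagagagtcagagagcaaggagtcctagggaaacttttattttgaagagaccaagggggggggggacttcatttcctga
Lhfpl3: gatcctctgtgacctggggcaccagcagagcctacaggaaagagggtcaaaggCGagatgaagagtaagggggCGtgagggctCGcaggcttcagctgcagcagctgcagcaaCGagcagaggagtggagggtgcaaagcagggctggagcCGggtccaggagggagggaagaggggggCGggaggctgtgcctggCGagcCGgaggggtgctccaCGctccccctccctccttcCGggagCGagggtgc

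RefSeq promoter windows of 300 bases, from 250 before to 50 after the start, were found for 5 of the 8 members. The *Nkx2-2* window (chr2:147186353-147186652, minus strand) lies inside the annotated gene (147177546 to 147194243), so that it belongs to an internal start. The *Olig2* window held 25 CG dinucleotides, more than 81.6% of the 32851 windows, whose median was 7. The windows of *Cspg4* and *Nkx2-2* held 17 each (above 68.6% of windows) and that of *Lhfpl3* held 12 (above 60.4%). The *Pdgfra* window, with 5, was below the median of all windows. The E-box CANNTG, the kind of site that bHLH factors such as OLIG2 bind, occurred 3 times in the *Nkx2-2* window and 2 times each in those of *Pdgfra* and *Lhfpl3*, and 72.3% of all windows held it. The windows of *Olig2* and *Cspg4* held no match to it. GGGCGG, the GC box, was searched on both strands and contains a CG itself. It occurred 2 times each in the *Olig2* and *Cspg4* windows, once each in those of *Nkx2-2* and *Lhfpl3* and not in that of *Pdgfra*, against 35.7% of all windows with a match. ACAAAG, a core that SOX proteins recognize, had no match on either strand in these 5 windows, and 18.7% of all windows held one. Other forms of the SOX site were not searched. DNA methylation was not analysed here.

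Among the transcription factors, *Olig2*, a bHLH factor that is required to specify the lineage, lies on chromosome 16 (GRCm38, 91225457 to 91228677, plus strand). It had 641 and 814 counts in the WT libraries and 1048 and 1110 in the KO libraries. This corresponds to 79.6 and 79.8 CPM in WT and 125 and 122 CPM in KO. The libraries of each genotype lay close together and the genotypes did not overlap. The difference on the log2 scale was 0.63 (standard error 0.14, 95% interval 0.31 to 0.95, edgeR adjusted p = 0.0298). *Olig2* passed the threshold in all 10 alternative fits on the 4 libraries, with adjusted p-values from 0.00283 to 0.0309. Without KO replicate 1 its adjusted p was 0.32 and without KO replicate 2 it was 0.287, with log2 fold changes of 0.62 and 0.65. In these fits the spread came from the WT libraries alone, and the remaining KO library was assumed to vary like them. In fits without a WT library the spread came from the KO libraries alone, which lay closer together (biological coefficient of variation 0.103 in KO and 0.237 in WT), so that calls from such fits are not evidence that a difference is stable.

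*Olig1*, the neighbouring bHLH gene, starts 44.3 kb further along the same strand of chromosome 16 (91269772 to 91271933) and acts in precursor maturation. It had 1263 and 2034 counts in WT, against 1974 and 2328 in KO, or 157 and 199 CPM in WT and 235 and 256 CPM in KO. The KO libraries were higher, but the WT libraries differed from each other by more than the nearer pair of WT and KO libraries did. The log2 fold change was 0.46 (standard error 0.16, 95% interval 0.09 to 0.83) and did not pass (edgeR adjusted p = 0.136). It was 0.30 without WT replicate 1 and 0.65 without WT replicate 2, the latter resting on the WT library with the high share of mitochondrial rRNA. *Olig1* passed in 3 of the 10 alternative fits on the 4 libraries. These had a block for the replicate number (log2 fold change 0.47), offsets for gene length and GC content (0.39) or both (0.39). The antisense gene *Gm15966* overlaps 7.26% of the exonic bases of *Olig1*, and as the strand setting of the counting is not given in the sources used here, reads there cannot be assigned to either gene.

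*Sox10* encodes an HMG-box factor that is kept through the whole oligodendrocyte lineage and drives myelin genes. It lies on chromosome 15 (79154908 to 79165240, minus strand). Its counts were 496 and 789 in WT and 844 and 1100 in KO, or 61.6 and 77.3 CPM against 100.3 and 121 CPM. Both KO libraries were above both WT libraries, and the libraries within each genotype also differed. *Sox10* had the highest log2 fold change of the members with 0.67 (standard error 0.18, 95% interval 0.27 to 1.08), just outside the threshold (edgeR adjusted p = 0.0587). With DESeq2 the adjusted p was 0.0209, and *Sox10* passed in 7 of the 10 alternative fits on the 4 libraries. Without WT replicate 1 the log2 fold change was 0.51 and without WT replicate 2 it was 0.85.

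*Nkx2-2*, a homeobox gene that marks ventral progenitors and precursors close to differentiation, was the least abundant member. It lies on chromosome 2 (147177546 to 147194243, minus strand) and had 44 and 67 counts in WT, against 70 and 92 in KO, or 5.46 and 6.56 CPM against 8.32 and 10.1 CPM. The groups did not overlap, but at this depth the interval of the difference was wide. The difference on the log2 scale was 0.61 (standard error 0.30, 95% interval -0.08 to 1.31, edgeR adjusted p = 0.27). The antisense gene *Nkx2-2os* overlaps 9.67% of its exonic bases.

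Of the receptors and surface proteins, *Pdgfra* had the most counts. It encodes the receptor for PDGF-A, the main mitogen of precursors, and lies on chromosome 5 (75152292 to 75198215, plus strand). It had 5907 and 7341 counts in WT, against 7162 and 7522 in KO, or 733 and 719 CPM against 851 and 828 CPM. The KO libraries were slightly higher and the genotypes did not overlap. The log2 fold change of 0.21 (standard error 0.13) did not pass (edgeR adjusted p = 0.394). Its 95% interval corresponds to a KO level between 0.934 and 1.43 times the WT level. Antisense genes overlap 6.21% of its exonic bases.

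*Cspg4* encodes the proteoglycan NG2, which is found on precursors and also on pericytes, and lies on chromosome 9 (56865033 to 56899870, plus strand). It had 2030 and 2688 counts in WT, against 2692 and 3440 in KO, or 252 and 263 CPM against 320 and 379 CPM. The WT libraries agreed closely and both KO libraries were higher. On the log2 scale the difference was 0.44 (standard error 0.15) at an edgeR adjusted p of 0.119. With single libraries left out it lay between 0.32 (without KO replicate 2) and 0.56 (without KO replicate 1), and it was 0.40 and 0.47 without a WT library. On all 4 libraries *Cspg4* passed in 3 of the 10 alternative fits. The edgeR adjusted p was 0.0470 with a block for the replicate number, 0.0254 with offsets for gene length and GC content and 0.00816 with both.

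*Gpr17* encodes a G protein-coupled receptor that appears when precursors commit to differentiation, and lies on chromosome 18 (31942997 to 31949636, minus strand). It had 1652 and 2237 counts in WT, against 2162 and 2651 in KO, or 205 and 219 CPM against 257 and 292 CPM. The KO libraries were again higher without overlap. On the log2 scale the difference was 0.37 (standard error 0.14) at an edgeR adjusted p of 0.167, and *Lims2* overlaps 3.62% of the exonic bases on the opposite strand.

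*Lhfpl3*, which encodes a membrane protein of the LHFPL family that is enriched in precursors, lies on chromosome 5 (22746059 to 23275597, plus strand) and was the exception. It had 476 and 594 counts in WT, against 488 and 412 in KO, or 59.1 and 58.2 CPM against 58.0 and 45.4 CPM. KO replicate 1 lay within 0.2 CPM of WT replicate 2, and KO replicate 2 alone was clearly lower. On the log2 scale the difference was -0.18 (standard error 0.17) at an edgeR adjusted p of 0.562, and it was -0.01 without KO replicate 2. The antisense gene *A930003O13Rik* overlaps 17.6% of its exonic bases, the largest such share among the members.

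**Figure D1:**
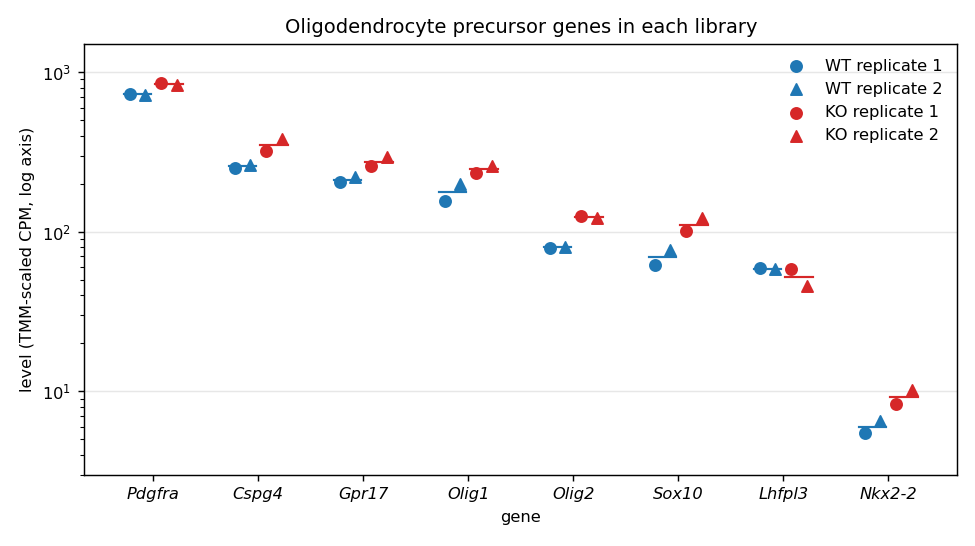
Level of the 8 genes in each library as TMM-scaled CPM on a log axis, with blue symbols for WT, red symbols for KO, circles for replicate 1, triangles for replicate 2 and horizontal lines for the mean of 2 libraries. *Pdgfra* lies between 719 and 851 CPM in every library, and in *Lhfpl3* alone the KO libraries are not above the WT libraries.

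Of the 8 members, edgeR called 1 higher in KO and 0 lower at the threshold of 0.05. Among all 16832 genes tested, 7.33% were higher and 0.57% were lower by the same rule. At an unadjusted p under 0.05, 5 members were higher and 0 were lower, against 14.6% and 8.01% of all genes. DESeq2 called 2 members higher (*Olig2* and *Sox10*) and 0 lower, against 7.4% and 1.47% of all genes. Both KO libraries lay above both WT libraries in 7 members and below them in 1, against 28.3% and 25.2% of all genes. The median log2 fold change was 0.45 over the members and -0.03 over all genes tested. Among the other settings of the edgeR fit that have no replicate block and keep all 4 libraries, 2 members were higher with library size only (10% of all genes higher), without the filter (5.97%) and with at least 10 counts in every library (5.81%), 4 were higher with offsets for length and GC content (11.3%) and 1 was higher in the remaining settings. These counts describe the 8 genes and are no test of the group.

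**Figure D2:**
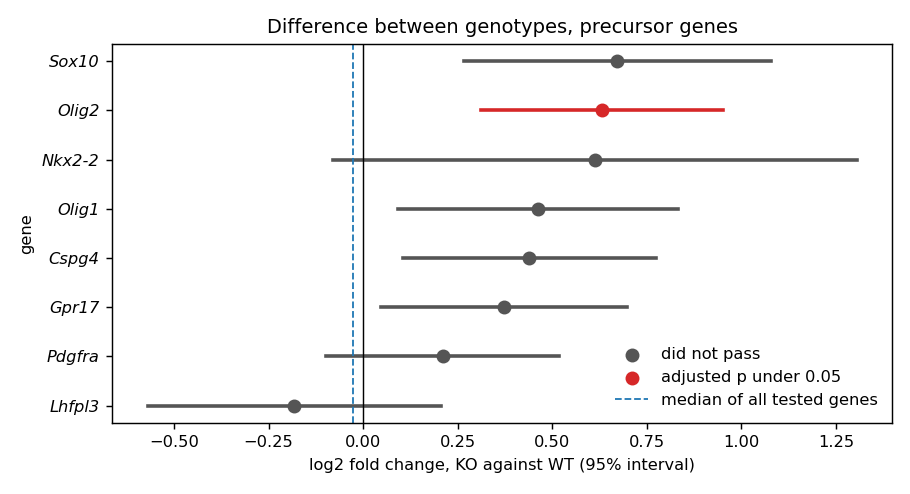
Log2 fold change of KO against WT for each of the 8 genes (points) with the 95% interval from the edgeR fit (lines), with *Olig2* in red as the member with an adjusted p under 0.05 and the dashed line at the median of all tested genes (-0.03). The intervals of *Pdgfra*, *Nkx2-2* and *Lhfpl3* include 0, and no interval reaches beyond 1.31.

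Levels of different genes were compared per kilobase of annotated exon. In WT, *Olig1* (82.3 ± 13.9 CPM per kilobase, SD, n = 2) and *Pdgfra* (72.5 ± 0.986) led and overlapped with each other. *Gpr17* followed with 40.8 ± 1.92 and *Olig2* with 31.5 ± 0.0523 CPM per kilobase, each apart from its neighbours. *Sox10* (22.8 ± 3.65) and *Cspg4* (21.6 ± 0.675) overlapped, *Lhfpl3* was lower with 18.3 ± 0.195, and *Nkx2-2* was last with 2.09 ± 0.271 CPM per kilobase. In WT, 7 of the members thus ranked above at least 84.8% of the tested genes by this measure, while *Nkx2-2* ranked above 34.5%.

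The order was the same in KO, from *Olig1* with 113.6 ± 7.10 and *Pdgfra* with 83.8 ± 1.63 CPM per kilobase to *Nkx2-2* with 3.21 ± 0.445, and there no neighbours overlapped. *Gpr17* and *Olig2* came closest in KO, with 49.5 CPM per kilobase in the lower *Gpr17* library and 49.2 in the higher *Olig2* library. With the length of the longest transcript in place of all annotated exons, 3 members kept their place in the order in WT and 4 in KO, so that the order depends on the gene length used.

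**Figure D3:**
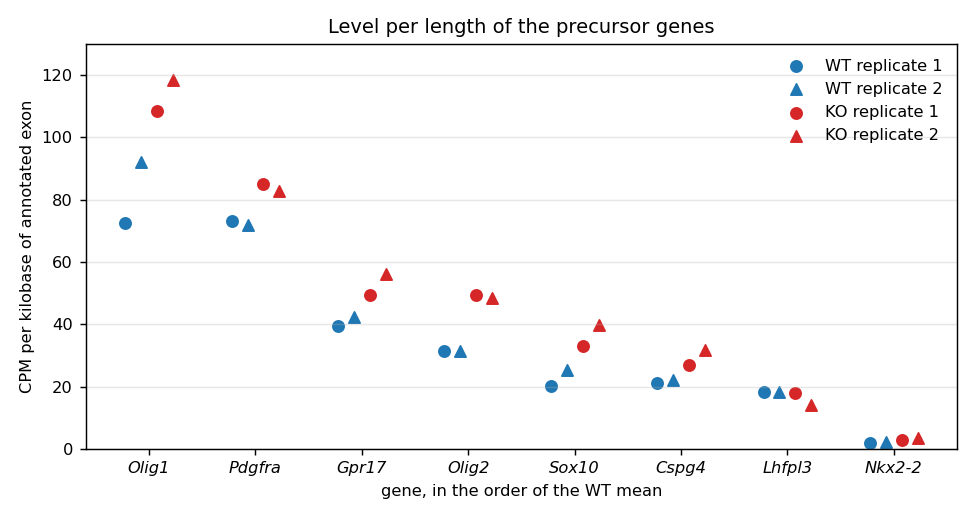
Level of each gene per kilobase of annotated exon in the 4 libraries (blue WT, red KO, circles replicate 1, triangles replicate 2), on a linear axis from 0 and ordered by the WT mean. *Olig1* and *Pdgfra* overlap in WT and lie apart in KO, and *Nkx2-2* stays under 4 CPM per kilobase.

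The ratios of the members to *Pdgfra* overlapped between the genotypes in some members and not in others. *Pdgfra* made up 47.2% and 44.3% of the summed CPM of the 8 genes in WT and 43.6% and 40.3% in KO. For each CPM of *Pdgfra* there was 0.109 and 0.111 CPM of *Olig2* in WT and 0.146 and 0.148 CPM in KO, with little spread within a genotype. The ratio of *Cspg4* to *Pdgfra* was 0.344 and 0.366 in WT and 0.376 and 0.457 in KO. That of *Lhfpl3* was 0.0806 and 0.0809 in WT and lower in KO, with 0.0681 and 0.0548. The ratios of *Sox10* (0.0840 and 0.107 in WT, 0.118 and 0.146 in KO) and *Nkx2-2* (0.00745 and 0.00913 in WT, 0.00977 and 0.0122 in KO) did not overlap either. How often such a ratio does not overlap among all genes was not counted. The ratios of *Gpr17* (0.28 and 0.305 in WT, 0.302 and 0.352 in KO) and *Olig1* (0.214 and 0.277 in WT, 0.276 and 0.309 in KO) overlapped between the genotypes. With 2 libraries against 2, an exact permutation test of such a ratio cannot give a two-sided p below 0.333, and the ratios are given as a description.

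The 5 genes whose levels over the 4 libraries lay nearest to the median profile of the members were *B230303O12Rik*, *Lamc1*, *Slc22a23*, *Xylt2* and *Ctsf*, among 14286 genes with at least 10 counts in every library. Their root mean square distance from the profile was 0.015 to 0.0207 on the log2 scale, over 4 libraries only. *Lamc1*, which encodes a laminin subunit, had 68.1 and 75.0 CPM in WT and 91.8 and 105.6 CPM in KO. None of the 5 genes passed the test (smallest edgeR adjusted p = 0.118).

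Other genes of the lineage were taken from lists that do not include the members. For comparison with the counts here and below, 7.33% of all genes tested were higher in KO and 0.57% were lower by edgeR. Genes with few or 0 counts in WT passed the filter on low counts only through their KO counts, which favours large differences among them. Of 17 genes for surface and matrix proteins of precursors, 5 were higher in KO, 0 were lower (0 also at an unadjusted p under 0.05) and the median log2 fold change was 0.61. *Bcan*, the proteoglycan brevican, had 1022 and 1692 counts in WT, against 5586 and 6468 in KO (log2 fold change 2.23, edgeR adjusted p = 0.000114). *Cspg5*, the proteoglycan neuroglycan C, rose by 1.45 on the log2 scale and *Xylt1*, which starts the sugar chains of proteoglycans, by 0.88. *Neu4*, a sialidase, had 1 and 0 counts in WT, against 41 and 51 in KO, a ratio of 96.1 with an exact 95% interval of counting error from 16.8 to 3835. *Susd5* had 4 and 8 counts in WT, against 33 and 29 in KO and passed as well.

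The 2 genes of this list with the most counts over all 4 libraries did not pass, although in KO *Bcan* was above *Vcan*. *Ptprz1*, a receptor phosphatase, had 510 ± 105 CPM in the WT libraries (SD, n = 2) against 777 ± 23.5 CPM in KO (log2 fold change 0.61, edgeR adjusted p = 0.0759). *Vcan*, the proteoglycan versican, had 548 ± 127 and 475 ± 30.3 CPM, and the groups overlapped. In each list with 0 lower genes by edgeR, here and below, DESeq2 and limma-voom gave 0 lower genes as well. *Bcan*, *Cspg5* and *Ptprz1* are also expressed by astrocytes and radial glia.

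Of 18 regulators of the lineage, 4 were higher and 1 was lower in KO, with a median log2 fold change of 0.20. *Sox8* and *Sox9*, which belong to the same SoxE family as *Sox10*, rose by 1.12 (edgeR adjusted p = 0.00914) and 0.96 (edgeR adjusted p = 0.00752) on the log2 scale. *Sox8* had 21.2 ± 3.83 CPM in the WT libraries (SD, n = 2) against 46.4 ± 4.53 CPM in KO, and *Sox9* had 33.3 ± 3.61 and 64.8 ± 2.40 CPM. *Tcf7l2*, an effector of Wnt signalling, rose by 1.29 and the homeobox gene *Prrx1* by 0.90. *St18*, a zinc finger gene related to *Myt1*, was the lower one, from 70.6 ± 5.95 to 45.6 ± 0.364 CPM (log2 fold change -0.63, edgeR adjusted p = 0.0403). The abundant regulators *Tcf4* and *Nfib* did not pass and their groups overlapped.

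Among the PDGF genes other than *Pdgfra*, the ligand gene *Pdgfa* had 20.0 ± 1.47 CPM in the WT libraries (SD, n = 2) against 17.6 ± 4.51 CPM in KO (edgeR adjusted p = 0.689). *Pdgfc* had 32 and 20 counts in WT, against 29 and 37 in KO. Of the 4 genes tested out of 5, 1 was higher and 0 were lower (0 also at an unadjusted p under 0.05 and 0 with DESeq2). The higher gene was *Pdgfrb*, the other PDGF receptor, which rose from 11.2 ± 2.47 to 82.9 ± 1.73 CPM (log2 fold change 2.88, edgeR adjusted p = 5.79e-05). *Pdgfrb* is a marker of mural cells and not of oligodendrocyte precursors.

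Most of the genes of the later stages of the lineage rose in KO. Of 18 genes of committed precursors and myelin, 16 were tested, 13 were higher, 0 were lower (0 also at an unadjusted p under 0.05) and the median log2 fold change was 2.38, against 0.45 over the members. With at least 10 counts required in every library, 7 of these genes were called, as several had few or 0 counts in WT. *Mobp*, a myelin protein gene, had 7 and 7 counts in WT, against 376 and 399 in KO (log2 fold change 5.82). *Mag*, the myelin-associated glycoprotein, had 8 and 25 counts in WT, against 367 and 482 in KO (log2 fold change 4.75), and *Ermn* had 7 and 12 against 111 and 112. *Mal* had 0 and 4 counts in WT, against 394 and 358 in KO, and the homeobox gene *Nkx6-2* had 1 and 3 against 49 and 42. *Opalin* was at 0 in both WT libraries and had 13 and 27 counts in KO, at least 6.78-fold higher when 3 counts per library are taken for WT. *Sirt2*, *Ugt8a* and *Mog*, the last named after its value was seen, missed the threshold (log2 fold changes 0.32, 0.53 and 0.45). Levels in WT ranged from 0 CPM for *Opalin* to 68.9 CPM for *Sirt2*.

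The difference in size between the members and these genes was read from their intervals. The highest upper bound of any member was 1.31 on the log2 scale, that of *Nkx2-2*. The lower bound was above it in 10 of the 16 myelin and committed precursor genes tested, in 2 of the 17 surface and matrix genes and in 0 of the 18 regulators. Some of these genes, *Mal*, *Opalin*, *Nkx6-2*, *Mobp* and *Neu4* among them, passed the filter on low counts only through their KO counts, which favours large differences. Every member had at least 44 counts in each library, so that this comparison of sizes is a description only. The least changed of the 13 higher genes was *Bcas1* with a log2 fold change of 0.99, named after its value was seen.

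Several members are also expressed outside the oligodendrocyte lineage, so that markers of other cells were read beside them. For mural cells, which share *Cspg4* with precursors, 9 of 10 markers were higher in KO, 0 were lower (0 also at an unadjusted p under 0.05), and their summed level went from 63.8 and 73.0 CPM in WT to 429 and 433 CPM in KO. *Rgs5* rose by 2.34 on the log2 scale, and *Acta2* was at 0 in both WT libraries and had 652 and 800 counts in KO, at least 249-fold higher when 3 counts per library are taken for WT. The part of mural cells in the level of *Cspg4* was not tested.

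For fibroblasts, which share *Pdgfra* with precursors, the summed level of 8 markers was 33.0 and 36.4 CPM in WT and 46.8 and 40.5 CPM in KO. The part of fibroblasts in the level of *Pdgfra* was not tested. *Twist1* had at most 1 count and *Lum* at most 4 counts in any library. Of the 4 fibroblast markers tested, 1 was higher (*Foxc1*, named after its value was seen, with 11 and 13 counts in WT against 44 and 48 in KO) and 0 were lower (0 also at an unadjusted p under 0.05). *Col1a2*, *Col3a1* and *Col1a1* did not pass, with log2 fold changes of 0.33, -0.42 and 1.34.

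*Olig1*, *Olig2* and *Nkx2-2* are also expressed by ventral progenitors. Of 10 markers of cycling cells and radial glia, 1 was higher in KO (*Hes1*, log2 fold change 1.55, named after its value was seen) and 0 were lower (1 at an unadjusted p under 0.05). The proliferation gene *Mki67* had 216 ± 1.71 CPM in the WT libraries (SD, n = 2) against 210 ± 10.1 CPM in KO (log2 fold change -0.04, 95% interval -0.35 to 0.27). *Fabp7* and *Vim*, genes of radial glia, missed the threshold (log2 fold changes 0.40 and 0.26). The part of progenitors in the level of *Olig2* was not tested.

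Astrocyte markers moved most among the lists. All 11 were higher in KO, with a median log2 fold change of 4.32 and a summed level of 248 and 236 CPM in WT against 4156 and 3946 CPM in KO. The glutamate transporter gene *Slc1a2* had 913 and 914 counts in WT, against 17041 and 16980 in KO, and *Slc1a3* and *Fgfr3* rose by 2.95 and 4.06 on the log2 scale. *Gfap*, named after its value was seen, was at 0 in both WT libraries. Their part in the levels of the members was not tested.

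Of 12 markers of neurons and GABAergic interneurons, 0 were higher (0 also at an unadjusted p under 0.05 and 0 with DESeq2) and 1 was lower, *Stmn2* (log2 fold change -0.57, named after its value was seen), with a median log2 fold change of -0.34. At an unadjusted p under 0.05, 6 of the 12 were lower (8.01% of all genes), DESeq2 called 2 lower (1.47% of all genes), and in 9 the KO libraries were lower without overlap (25.2% of all genes). *Tubb3*, *Map2* and *Dlx1* missed the threshold (log2 fold changes -0.47, -0.44 and -0.21). Of 6 genes of POA identity, 5 were tested and 0 passed (0 also at an unadjusted p under 0.05 and 0 with DESeq2), and the groups overlapped in all 5, *Hmx3*, *Lhx6* and *Nkx2-1* among them. Of the 7 microglial markers tested, 2 were higher, among them *Csf1r* with a log2 fold change of 1.03, 0 were lower (0 also at an unadjusted p under 0.05) and *Cx3cr1* did not pass (log2 fold change 1.07). Of the 5 endothelial markers tested, 0 passed (3 at an unadjusted p under 0.05 and 0 with DESeq2), with log2 fold changes of -0.84 for *Kdr*, 1.11 for *Flt1* and 0.11 for *Pecam1*.

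**Figure D4:**
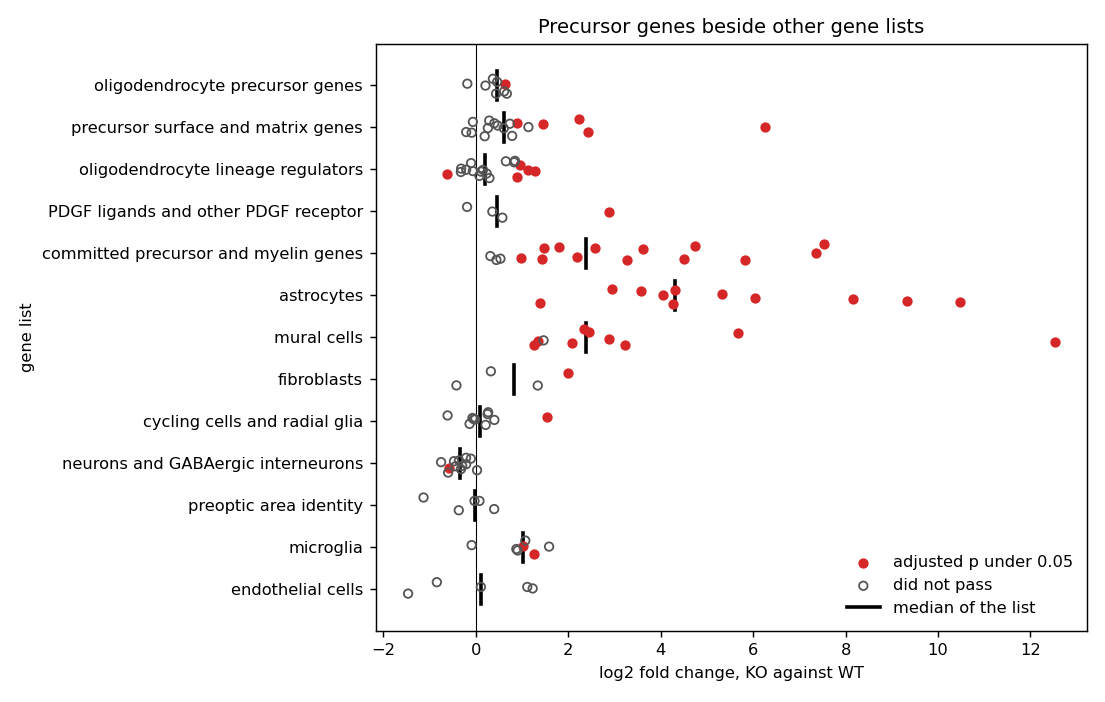
Log2 fold change of KO against WT for every tested gene of the 8 precursor genes and of 12 other lists, with filled red points for an adjusted p under 0.05, open points for genes that did not pass and black bars for the median of each list. The precursor genes centre on 0.45, between the neuronal list at -0.34 and the myelin list at 2.38, and the fitted values of genes with 0 counts in both WT libraries, such as *Gfap* and *Acta2*, depend on the small count that the fit adds.

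The direction of each member was the same in all 14 alternative fits. Over the 10 alternatives on the 4 libraries, the log2 fold change of *Pdgfra* lay between 0.20 and 0.32, that of *Gpr17* between 0.29 and 0.48, that of *Nkx2-2* between 0.48 and 0.72 and that of *Lhfpl3* between -0.19 and -0.07, and none of these 4 genes passed in any of them. *Cspg4* and *Olig1* passed in 3 of the 10. Leaving out single libraries moved the calls more, with the spread taken from the other genotype as described above: 3 members were higher without WT replicate 1 (14.9% of all genes higher) and 5 without WT replicate 2 (12.8%), *Gpr17* among them (log2 fold change 0.42, edgeR adjusted p = 0.0129). Without KO replicate 1 or KO replicate 2, 0 members passed (4.19% and 4.9% of all genes higher).

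**Figure D5:**
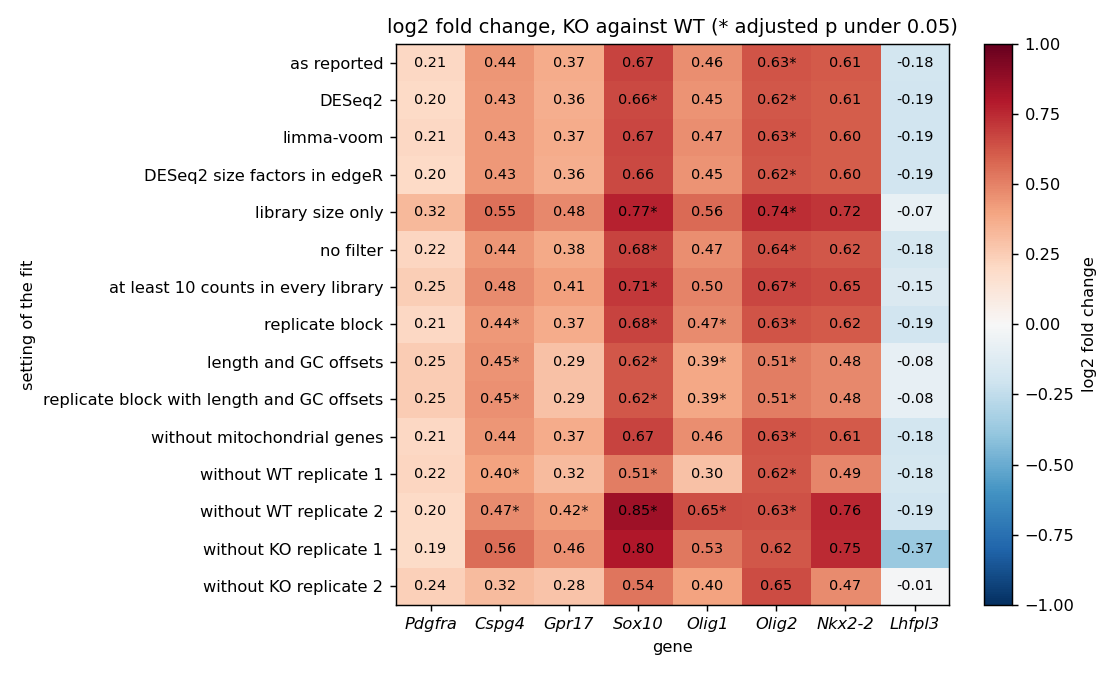
Log2 fold change of KO against WT of the 8 genes (columns) in the reported fit and in each of 14 alternatives (rows), with the colour scale from -1 to 1 and an asterisk for an adjusted p under 0.05. *Olig2* has an asterisk in every row except those without KO replicate 1 or 2, and *Lhfpl3* is negative in every row.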

How the data were processed

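The values deposited by the authors are counts of reads for each Ensembl gene, unnormalized, in a separate list for each library. The submitters' processing notes name CASAVA 1.8.2, STAR 2.5.2a and featureCounts 1.5.0-p1 and the builds mm10 and GRCm38, while the annotation release and the strand setting are not given in the sources used here. If strand was ignored, overlapping antisense genes share reads with the genes described. Of 55573 identifiers, 55480 matched GENCODE M21 (GRCm38), which gave symbols, positions and exon lengths. Groups and replicate numbers came from the sample labels.

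Counts were tested with edgeR 4.0.16 (R 4.3.3): expression filter, TMM factors, quasi-likelihood test with genotype as the only term, Benjamini-Hochberg adjustment over 16832 genes and a threshold of 0.05. Standard errors and 95% intervals were derived from the test statistic. Levels are CPM of TMM-scaled library sizes, and totals of 8075102 to 9995968 counts per library set their precision. The gene profile comparison used log2(CPM + 0.5).

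The alternatives were DESeq2 1.42.0, limma-voom (limma 3.58.1), DESeq2 size factors, library size only, no filter, a minimum of 10 counts per library, a block for the replicate number, offsets for gene length and GC content (mgcv 1.9.3), both together, removal of 11 mitochondrial genes, and each library left out in turn. The procedures were tested on simulated data, in which differences about the size of the members' median were rarely called. Among larger simulated differences, the share of false edgeR calls was above the threshold. The members and lists were chosen with earlier results of these data known. Genes were named by these rules: all members, from each lineage list up to 6 called genes by size of change and the 2 best-counted others, and from each cell type list the 3 with the most counts. The value of 1 gene that these rules name is not reported here.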

Additional observations from a re-analysis of the deposited data

How the results depend on the processing

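No member changed direction in any alternative. Beside the reported fit, DESeq2, library size only, no filter and at least 10 counts in every library each gave 2 higher members, and the log2 fold change of *Sox10* was 0.66, 0.77, 0.68 and 0.71 in that order. Offsets for length and GC content gave 4, with 0.45 for *Cspg4*, 0.62 for *Sox10* and 0.39 for *Olig1*. The replicate number as a block also gave 4 (9.65% of all genes were higher), with 0.44 for *Cspg4*, 0.68 for *Sox10* and 0.47 for *Olig1*, and the block with offsets gave 4 (12.2%), with 0.45, 0.62 and 0.39. Over genes, the deviations of WT replicate 1 and KO replicate 1 from their group means correlated at 0.137. With 2 libraries per group this value also fixes that of the libraries numbered 2. The labels do not say what a number shares. The cause of these differences was not tested.

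Of all genes, the reported fit called 1233 higher and 96 lower (92.8% of calls higher). Calls numbered 1246 and 247 with DESeq2 (83.5%), 1790 and 573 without the filter (75.8%), 831 and 52 with at least 10 counts in every library, 1625 and 619 with the block (72.4%), 1897 and 908 with offsets (67.6%), and 2059 and 1164 with both (63.9%). Library size only moved the median of all genes by 0.11 on the log2 scale, and differences in that fit are relative to this shift.

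Genes called in the lists differed by more than 1.5 times as follows. With offsets, and with the block and offsets, 8 surface and matrix genes, 8 regulators, 2 fibroblast, 2 cycling or radial glia and 1 endothelial gene were called, with 3 and 5 neuronal genes respectively and, with both, 1 POA gene. At least 10 counts in every library left 3 surface and matrix, 7 myelin and 0 neuronal genes. Library size only gave 2 fibroblast and 0 neuronal genes, no filter 2 and 4, and the block 2 and 2. DESeq2 and its size factors in edgeR gave 2 neuronal genes, and limma-voom 1 microglial gene.

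With each library left out in turn, 0 to 5 members were higher, and the log2 fold change lay between 0.32 and 0.56 for *Cspg4*, 0.28 and 0.46 for *Gpr17*, 0.51 and 0.85 for *Sox10*, 0.30 and 0.65 for *Olig1* and 0.62 and 0.65 for *Olig2*. Calls ranged from 3 to 10 for surface and matrix genes, 0 to 9 for regulators, 0 to 2 for fibroblast, POA and endothelial genes, 0 to 3 for cycling or radial glia genes, 0 to 5 for neuronal genes, 0 to 4 for microglial genes, 706 to 2514 for all genes higher and 20 to 2144 for all genes lower. For the members, regulators and surface and matrix genes, the lowest counts came without a KO library and the highest without WT replicate 2. With the longest transcript as gene length, 3 members in WT and 4 in KO kept their place in the order of levels. At 2 libraries per group, the spread between libraries limits the smaller differences, and for *Nkx2-2* so does the depth, with 44 to 92 counts.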
